A study of Mus musculus with 24 samples.

Results

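The genes described here code for the ESCRT-III proteins of the Chmp family and for the Vps4 ATPases, which together act at damaged membranes. They were Chmp1a, Chmp2a, Chmp2b, Chmp3, Chmp4b, Chmp4c, Chmp5, Chmp6, Vps4a and Vps4b, and their probes were found through the RefSeq transcript that the array design gives for each probe. These 10 genes of the 23787 genes with a symbol on the array had 18 probes, of which 17 probes of 9 genes were bright enough to be tested. The exception was the probe of Chmp4c, which was well above background on 1 of 24 arrays and read between -6.71 and -4.11 on the scale defined below, so that its level is only bounded from above.

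RNA came from TM3 cells, an established Leydig cell line from mouse testis, which were suspended in a binding buffer in electroporation cuvettes. The exposed cells received a nanosecond pulsed electric field (nsPEF) of 80 pulses, each 60 ns wide at 14 kV/cm, within 180 s, and the other cells were sham-exposed. RNA was taken at 0, 4 and 24 h, which gave the groups S0, S4 and S24 for sham and E0, E4 and E24 for nsPEF, with 4 biological replicates each and 24 arrays in all. All groups came from a single cell line. The 8 arrays of a time point lay on the same slide, and differences between time points therefore cannot be told apart from differences between slides. Within each slide the sham arrays lay in the first row and the nsPEF arrays in the second, and this place cannot be told apart from the treatment.

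ESCRT-III subunits are soluble monomers that assemble into spiral filaments on membranes, narrow the neck of a bud or of a wound and cut it off from the inside. Chmp6 links the upstream complex ESCRT-II to the filament, Chmp4 proteins form its main strand, Chmp2 and Chmp3 proteins cap and reshape it, and the Vps4 ATPases pull subunits out of it and recycle them. The machinery is known for sorting receptors into multivesicular bodies, for the last step of cell division and for the repair of small holes in the plasma membrane, to which it is drawn by calcium entry. Electric pulses open such holes, and the question addressed by the comparisons is whether transcripts of this machinery differed between nsPEF-exposed and sham cells or with time after handling.

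The 75th percentile of the signal intensity ranged from 201.8 to 532.7 arbitrary units over the 24 arrays, and 0 spots were saturated. The share of probes well above background was lower on nsPEF arrays at each time point, with means of 54.9, 54.2 and 55.6% at 0, 4 and 24 h against 58.9, 59.5 and 60.0% for sham. Spots marked as not uniform numbered 36 to 112 on sham arrays and 62 to 443 on nsPEF arrays. Of the Leydig cell markers, the probes of Cyp17a1, Nr5a1 and Star were well above background on 24 of 24 arrays. Those of Cyp11a1, Hsd3b6 and Lhcgr were on 0 and those of Hsd3b1 on at most 1. The mesenchymal genes Vim, Pdgfra and Col1a1 were on 24. Of the Sertoli cell markers Sox9 was on 24 arrays, Amh on 2 and Fshr on 1. Of the macrophage markers Csf1r was on 24, and Ptprc and Adgre1 were on at most 1. Endothelial Pecam1 was on 24 and Cdh5 on 0, and germ cell Ddx4 was on 16 and Dazl on at most 2. Peritubular Acta2 was on 14 to 24 arrays by probe and Myh11 on 0 to 17.

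Values are the log2 signal intensity of a probe minus the log2 of the 75th percentile of its array, and they can be compared between arrays for the same probe but not between probes. Where a gene had several probes, the one with the highest mean was taken as its lead probe for counting, and the other tested probes of each gene named for a change are given beside it. Differences are group means subtracted on this scale with the standard error (SE) of limma, and a difference was called where limma's p, with Benjamini-Hochberg adjustment for the 37687 probes that were tested, was below 0.05. The study describes its tests of a biological replicate as run side by side on cells of a shared suspension, and the labels do not say which arrays that ties together. The p values measure the spread between the labelled replicates.

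Between nsPEF and sham the membrane repair genes differed little. Immediately after exposure 0 of 9 genes were called, beside 0.101% of all 16843 genes counted by their lead probe, and 2 of the 9 had an unadjusted p below 0.05. At 4 h 1 gene, Chmp6, was lower in nsPEF-exposed cells, beside a background of 4.03%, and 3 of the 9 had an unadjusted p below 0.05. At 24 h 0 of 9 lead probes were called against 5.74% of all genes, with 3 at an unadjusted p below 0.05, and over all time points together 0 of 9 were called against 10.1%, with 3 at an unadjusted p below 0.05. The interaction of treatment with time was called for 0 of 9 genes and for 0.427% of all genes, with 2 of the 9 at an unadjusted p below 0.05. The percentages are shares of calls by adjusted p. The share of all genes at an unadjusted p below 0.05 is not given, so the unadjusted counts cannot be read as an excess.

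The differences that were not called were small but not shown to be absent. Over the 9 lead probes the medians of nsPEF minus sham at 0, 4 and 24 h were -0.06, -0.08 and 0.00, where the medians of all genes were -0.04, -0.02 and 0.01. The 95% intervals of single genes reached from -0.32 to 0.15 at 0 h, from -0.41 to 0.15 at 4 h and from -0.35 to 0.27 at 24 h.

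**Figure D1:**
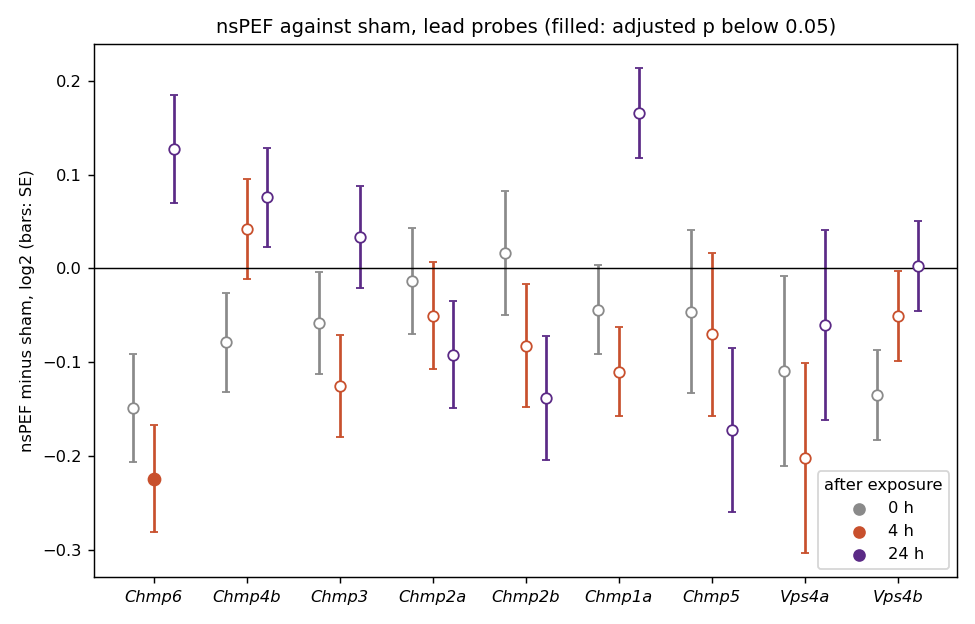
Difference between nsPEF-exposed and sham cells for the lead probe of each gene (vertical axis, log2, bars are the SE of limma) at 0, 4 and 24 h (n = 4 arrays per group). Chmp6 at 4 h is the only filled point, at -0.22. The points of Chmp6, Chmp1a, Chmp3 and Vps4b lie below 0 at 0 and 4 h and above 0 at 24 h, that of Vps4b at only 0.002. The medians of all genes have the same signs (-0.04, -0.02 and 0.01). With scaling on spike-in RNA, Chmp6 at 4 h stood at -0.04.

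Chmp6, the subunit that connects ESCRT-II to Chmp4, gave the one called difference. Its lead probe read 2.18, 2.22, 2.18 and 2.28 on the S4 arrays and 2.04, 1.91, 1.95 and 2.05 on the E4 arrays. The highest of the 4 nsPEF arrays lay under the lowest of the 4 sham arrays, and the difference was -0.22 (SE 0.057, a 1.17-fold lower signal, adjusted p = 0.0372). At 0 h the values were 2.40, 2.48, 2.47 and 2.49 in S0 and 2.32, 2.27, 2.34 and 2.32 in E0, again without overlap, but the difference of -0.15 did not pass (adjusted p = 0.346). At 24 h the order turned, with 2.29, 2.32, 2.41 and 2.49 in S24 and 2.34, 2.48, 2.55 and 2.63 in E24, which overlapped (0.13, adjusted p = 0.200).

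The change of the Chmp6 difference between time points did not pass the interaction test (adjusted p = 0.0801). The second Chmp6 probe, A_55_P2098300, ran the same way, with -0.17 at 0 h, -0.20 at 4 h and 0.10 at 24 h (adjusted p = 0.50, 0.161 and 0.477). On this probe E4 lay between 0.10 and 0.23 and S4 between 0.27 and 0.58, without overlap. The call at 4 h was lost in 5 of 12 other settings, among them quantile normalization (adjusted p = 0.0759) and spike-in scaling (-0.04, adjusted p = 0.728). It was also lost when any S4 array, or replicate 2 or 3 of E4, was left out (adjusted p from 0.0591 to 0.0925), and without replicate number 1, 2, 3 or 4 of all groups (adjusted p up to 0.23), so that it held in 18 of 28 fits with arrays left out, with the sign unchanged. At 4 h the nsPEF arrays also had a lower share of detected probes (54.2 against 59.5%) and more non-uniform spots (180 to 347 against 52 to 73). The same held at 24 h (55.6 against 60.0%, and 282 to 443 against 71 to 112), where the Chmp6 difference had the other sign. The part of these measures in the difference was not tested.

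Chmp1a, a late subunit of the filament, stood close to the threshold at 24 h. Its lead probe read 2.34, 2.36, 2.38 and 2.38 in S24 and 2.41, 2.56, 2.54 and 2.60 in E24. The groups did not overlap, and nsPEF exceeded sham by 0.17 (SE 0.048, adjusted p = 0.0503). At 4 h the order was the opposite, with 2.57 to 2.61 in S4 and 2.41 to 2.55 in E4 and a difference of -0.11 that did not pass (adjusted p = 0.194). The second Chmp1a probe, A_66_P124767, which matches the same transcript, was called at 24 h with 0.46 (SE 0.10, adjusted p = 0.0153). It read -1.98, -1.97, -1.99 and -1.97 in S24 and -1.69, -1.39, -1.42 and -1.56 in E24. These 4 nsPEF values were all higher than the sham values, and at 0 and 4 h the probe differed by 0.02 and -0.07 (adjusted p = 0.987 and 0.752). The call of this probe was lost with spike-in scaling (0.40, adjusted p = 0.0936), with normexp background correction (0.32, adjusted p = 0.0521), with only the groups compared, without replicate 2 of E24 (adjusted p = 0.0545) and without replicate number 2, 3 or 4 of all groups (adjusted p up to 0.15). The lead probe passed with quantile normalization (adjusted p = 0.0272), with the replicate number as a block (adjusted p = 0.0308), and with 2 E0 arrays left out in turn, replicate 1 (0.0476) and replicate 3 (0.0446), as it did without replicate 1 of E24 (0.0110).

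The main strand and the recycling enzymes showed no called treatment difference on any probe. Chmp4b, the main filament subunit, had 5.47, 5.46, 5.49 and 5.45 in S0 and 5.44, 5.42, 5.35 and 5.36 in E0. The nsPEF arrays lay below the sham arrays by 0.08, a difference that was not called (-0.08, adjusted p = 0.689) and changed sign to 0.04 at 4 h and 0.08 at 24 h. Vps4b was -0.13 at 0 h (adjusted p = 0.295), -0.05 at 4 h and 0.00 at 24 h. Vps4a was -0.11, -0.20 and -0.06 at the same times, with adjusted p of 0.806, 0.258 and 0.753.

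More of these genes were called between time points than between treatments. In sham cells, 2 of 9 genes rose from 0 to 4 h, beside 30.8% of all genes, and 2 fell, beside 34.6%. From 0 to 24 h 1 gene rose (background 15.7%) and 4 fell (22.8%), and from 4 to 24 h 2 rose (31.7%) and 4 fell (33.8%). In nsPEF-exposed cells 2 rose and 3 fell from 0 to 4 h (34.8% and 33% of all genes), 3 rose and 1 fell from 0 to 24 h (24.3% and 21.5%), and 3 rose and 3 fell from 4 to 24 h (31.7% and 31.7%). With 9 genes these counts sit near the background shares. The median size of the change from 0 to 4 h in sham was 0.18 for the 9 genes and 0.48 for all genes. The comparisons in sham and in nsPEF cells share no arrays with each other, but those within a treatment share the 0 h, 4 h or 24 h arrays.

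The reference against which levels are set matters at 24 h. Scaled on the spike-in RNA instead of the 75th percentile, the median of all genes moved by 0.68 from 0 to 24 h in sham and by 0.51 in nsPEF cells, but by 0.01 from 0 to 4 h in sham and 0.12 in nsPEF cells. Falls at 24 h are therefore falls relative to the other genes on the array, and with spike-in scaling each fall from 0 to 24 h that is named below had a positive sign. Relative to the median of all genes the differences in sham were -0.29 for Chmp2a, -0.26 for Chmp4b, -0.25 for Vps4a and -0.10 for Chmp1a. These values are the same under both scalings by construction, since each subtracts a constant from all probes of an array. They are therefore no second test of the falls.

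**Figure D2:**
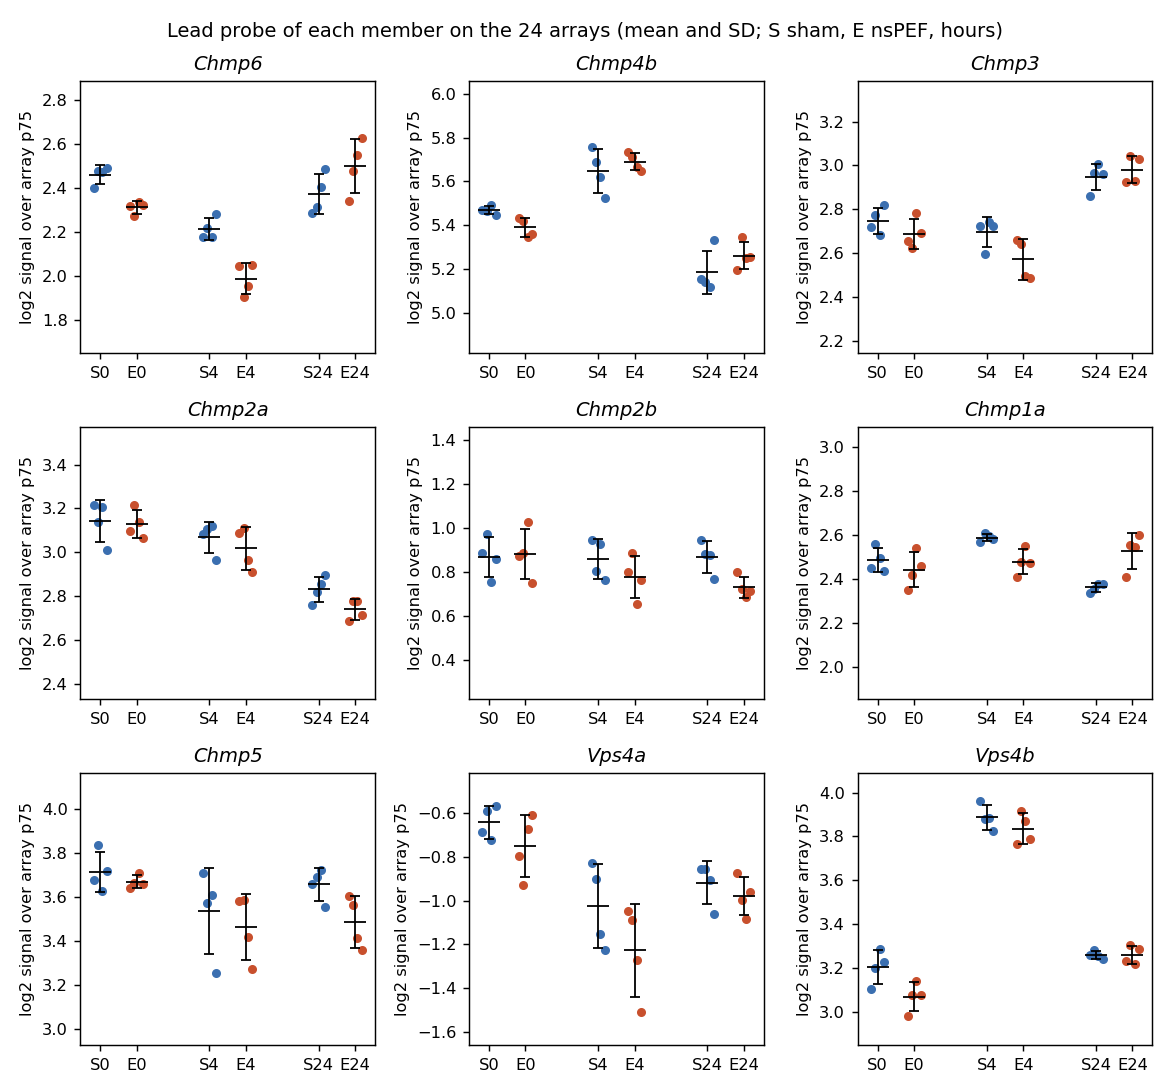
Log2 signal of each lead probe over the 75th percentile of its array (vertical axes, all spanning the same range) in the 6 groups. Points are arrays (blue sham, orange nsPEF), and bars are the mean and SD of 4 arrays. Vps4b stands between 3.76 and 3.96 at 4 h against 2.98 to 3.31 at 0 and 24 h, and Chmp6 has its lowest values, 1.91 to 2.05, in E4. With spike-in scaling the falls of Chmp2a and Chmp4b from 0 to 24 h turned into rises.

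Vps4b made the largest change with time among the 9 lead probes. It codes for a Vps4 ATPase, and its probe read 3.10, 3.20, 3.29 and 3.23 in S0, 3.96, 3.88, 3.88 and 3.82 in S4, and 3.26, 3.28, 3.25 and 3.24 in S24. All S4 arrays were above all S0 and S24 arrays, with a rise of 0.68 to 4 h (SE 0.048, 1.60-fold, adjusted p = 1.38e-10) and a fall of 0.63 from 4 to 24 h (adjusted p = 6.82e-10). Exposed cells moved likewise, from 2.98, 3.08, 3.14 and 3.08 in E0 to 3.76, 3.92, 3.87 and 3.79 in E4, a rise of 0.77 (1.70-fold, adjusted p = 2.10e-11). They then came down to 3.23, 3.31, 3.22 and 3.29 in E24, which was 0.19 above E0 (adjusted p = 0.00338), where sham cells had 0.05 (adjusted p = 0.413). The means at 24 h were 3.26 in both treatments, and the interaction of treatment with time was called for 0 of the 9 genes. The rises at 4 h held in 12 of 12 other settings and in 28 of 28 fits with arrays left out, whereas the falls from 4 to 24 h became 0.02 in sham (adjusted p = 0.81) and -0.18 in exposed cells (adjusted p = 0.056) with spike-in scaling.

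Vps4a, the paralog of Vps4b, went the other way at 4 h. It read -0.69, -0.59, -0.72 and -0.57 in S0 and -0.83, -0.90, -1.15 and -1.22 in S4, a fall of 0.38 (SE 0.10, 1.30-fold, adjusted p = 0.00280). The S4 arrays were all below the S0 arrays but spread over a wider range. In exposed cells it fell by 0.48 from 0 to 4 h (adjusted p = 0.000399), with -0.80, -0.93, -0.67 and -0.61 in E0 and -1.05, -1.09, -1.27 and -1.51 in E4. Both falls at 4 h held in 12 of 12 other settings. At 24 h the sham value was 0.28 below S0 (-0.28, adjusted p = 0.0388), a call that held in 8 of 12 other settings and was lost when replicate 1, 2 or 4 of S0, replicate 3 or 4 of S24 or any replicate number of all groups was left out (adjusted p up to 0.115), and that became a rise of 0.42 with spike-in scaling.

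The paralogs were also compared within each array, where scaling between arrays drops out. The log2 ratio of Vps4b to Vps4a was 1.06 higher in S4 than in S0 (2.09-fold) and 1.24 higher in E4 than in E0 (2.36-fold), with no overlap of the groups in either. It was still 0.33 higher in S24 than in S0 and 0.42 higher in E24 than in E0. Each of these 4 comparisons had an exact two-sided permutation p of 0.0286, the smallest that 4 against 4 arrays allow, and a Benjamini-Hochberg adjusted value of 0.0667 over the 14 paralog comparisons. Between nsPEF and sham the same ratio differed by -0.03, 0.15 and 0.06 at 0, 4 and 24 h (exact permutation p = 0.743, 0.286 and 0.429). The probes' own ratio says nothing about which ATPase was more abundant.

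**Figure D3:**
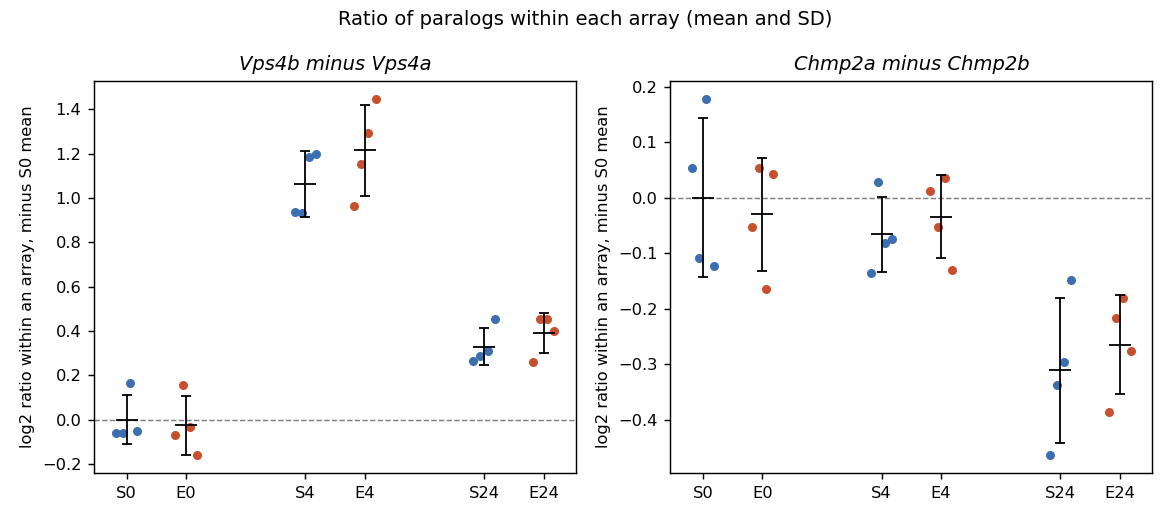
Log2 ratio of paralogs within each array, set to a mean of 0 in S0 (vertical axes), for Vps4b over Vps4a and for Chmp2a over Chmp2b, in the 6 groups. Points are arrays, and bars are the mean and SD of 4 arrays. The Vps4 ratio stands 1.06 above S0 in S4 and 0.33 above it in S24, and the Chmp2 ratio lies 0.31 below S0 in S24.

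The sequences around the start sites of these ATPases and of Chmp4b are shown because these genes changed at 4 h in unlike directions. They come from RefSeq on GRCm38.p6 and span 250 bases before to 50 bases after the start, in the direction of transcription. Entries were present for 8 of the 10 genes, with a second one for Chmp3, and Chmp4c and Chmp6 are only named. Capitals mark matches on either strand to the E-box CACGTG, the GC-box GGGCGG, the ETS site CCGGAAGT, the cyclic AMP response element TGACGTCA or the NRF1 site (GCGC, any base, then TGCGC, or its reverse complement), and no matches of different motifs overlapped in the windows shown.
Vps4b promoter, chr1:106796676-106796975, minus strand: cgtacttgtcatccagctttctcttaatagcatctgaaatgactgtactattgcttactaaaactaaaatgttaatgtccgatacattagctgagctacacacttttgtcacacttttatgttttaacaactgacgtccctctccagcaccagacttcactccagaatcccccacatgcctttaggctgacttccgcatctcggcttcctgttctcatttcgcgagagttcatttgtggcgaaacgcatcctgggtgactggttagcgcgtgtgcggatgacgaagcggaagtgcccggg
Vps4a promoter, chr8:107031019-107031318, plus strand: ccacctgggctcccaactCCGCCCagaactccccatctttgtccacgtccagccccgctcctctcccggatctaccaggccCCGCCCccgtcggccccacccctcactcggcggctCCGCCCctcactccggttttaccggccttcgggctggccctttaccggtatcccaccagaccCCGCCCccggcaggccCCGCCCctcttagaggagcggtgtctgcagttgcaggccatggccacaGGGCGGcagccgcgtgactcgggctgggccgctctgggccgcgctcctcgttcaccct
Chmp4b promoter, chr2:154656776-154657075, plus strand: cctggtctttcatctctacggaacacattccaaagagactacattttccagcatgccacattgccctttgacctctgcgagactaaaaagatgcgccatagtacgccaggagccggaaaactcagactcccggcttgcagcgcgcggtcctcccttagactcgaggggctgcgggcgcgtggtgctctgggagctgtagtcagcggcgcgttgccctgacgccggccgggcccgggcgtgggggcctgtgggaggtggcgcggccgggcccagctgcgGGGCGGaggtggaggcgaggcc

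The windows of the paralogs differed in base composition, with 47.0% G and C for Vps4b and 71.7% for Vps4a, beside a median of 52.7% over the 32851 promoters of the table. Vps4b held 0 of the 5 motifs, while Vps4a and Chmp4b held the GC-box and no other. Over the 9 windows of the membrane repair genes the GC-box was found in 5, where 35.7% of all promoters have it, the NRF1 site in 4 (4.6% of all), the cyclic AMP response element in 1 (1.79%), and the E-box and the ETS site in 0 (7.15 and 3.89%). The windows with the NRF1 site were those of Chmp2a, Chmp2b, Chmp5 and the upstream entry of Chmp3. A match of letters describes the window and is no evidence that a factor binds there.

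Chmp4b rose at 4 h and stood lowest at 24 h. Its lead probe went from 5.47, 5.46, 5.49 and 5.45 in S0 to 5.76, 5.69, 5.62 and 5.53 in S4, a rise of 0.18 (SE 0.053, adjusted p = 0.00644), and to 5.15, 5.14, 5.12 and 5.33 in S24. All 4 S24 arrays were below all S0 arrays, with a difference of -0.28 from 0 h (1.22-fold lower, adjusted p = 0.000294) and of -0.46 from 4 h (adjusted p = 2.52e-07), while spike-in scaling gave rises of 0.42 and 0.19. In exposed cells the probe rose by 0.30 to 4 h (adjusted p = 5.43e-05) and was 0.13 below E0 at 24 h, which did not pass (-0.13, adjusted p = 0.0580). The second probe, A_52_P288873, gave 0.30 in sham and 0.25 in exposed cells at 4 h and -0.36 and -0.29 at 24 h (adjusted p = 0.000157, 0.000866, 6.22e-05 and 0.000471), and under spike-in scaling both differences at 24 h were above 0. The rise of the lead probe in sham was lost with quantile normalization (adjusted p = 0.0863) and with a 75th percentile over probes detected on all arrays (adjusted p = 0.278). It was also lost without replicate number 1 or 2 of all groups (adjusted p up to 0.0701). The rise of the second probe at 4 h held in 12 of 12 other settings in sham, but in exposed cells it was lost with quantile normalization.

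Chmp6 was lower at 4 h than at 0 h in both treatments. From the values given above, the lead probe fell by 0.25 in sham (SE 0.057, 1.19-fold, adjusted p = 0.000869) and by 0.32 in exposed cells (1.25-fold, adjusted p = 5.65e-05), without overlap with 0 h. By 24 h it had returned in sham to 0.09 below S0 (-0.09, adjusted p = 0.252), and in exposed cells it stood 0.19 above E0 (adjusted p = 0.0126). From 4 to 24 h it rose by 0.16 in sham (adjusted p = 0.0213) and by 0.51 in exposed cells (1.43-fold, adjusted p = 1.91e-07). The second probe fell by 0.20 from E0 to E4 (adjusted p = 0.0384, lost under 3 of 12 other settings and in 8 of 28 fits with arrays left out) and differed by -0.16 between S0 and S4 (adjusted p = 0.0874). It rose by 0.33 from E4 to E24 (adjusted p = 0.00162) and differed by 0.03 between S4 and S24 (adjusted p = 0.823). The falls at 4 h of the lead probe held in 12 of 12 other settings. The rise from E0 to E24 was lost without replicate 4 of E24 and without replicate number 2, 3 or 4 of all groups, and that from S4 to S24 without replicate 1 or 3 of S4, replicate 3 or 4 of S24 or replicate number 2 or 3. Both were also lost with only the groups compared.

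From 0 to 24 h Chmp2a was called and its paralog Chmp2b was not. Chmp2a, the last subunit to join the filament before Vps4 acts, read 3.21, 3.14, 3.21 and 3.01 in S0, 3.08, 3.11, 3.12 and 2.96 in S4, and 2.76, 2.82, 2.85 and 2.89 in S24. The 4 S24 arrays were all below S0, with a fall of 0.31 (SE 0.057, 1.24-fold, adjusted p = 0.000242), and exposed cells fell by 0.39 from 0 to 24 h (1.31-fold, adjusted p = 1.83e-05). Its second probe, A_66_P115123, fell by 0.27 and 0.32 (adjusted p = 0.000608 and 0.000114). With spike-in scaling the 24 h differences of both probes were positive, 0.39 for the lead probe in sham. Chmp2b was called in 0 of the 11 comparisons, reading 0.75 to 0.97 in S0, 0.76 to 0.95 in S4 and 0.77 to 0.95 in S24, with its values in E24 from 0.68 to 0.80. Within an array the log2 ratio of Chmp2a to Chmp2b was 0.31 lower in S24 than in S0 (-0.31, exact permutation p = 0.0286) and 0.24 lower in E24 than in E0 (-0.24, exact permutation p = 0.0286), with an adjusted value of 0.0667 for each over the 14 paralog comparisons.

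Chmp3, which joins Chmp2a in the outer layer of the filament, had 5 probes that did not move together. The lead probe, A_55_P2155906, read 2.72, 2.77, 2.68 and 2.82 in S0, 2.73, 2.60, 2.74 and 2.72 in S4, and 2.86, 2.96, 3.01 and 2.96 in S24. Only the 24 h arrays stood apart, with a rise of 0.20 in sham (SE 0.054, adjusted p = 0.00678) and of 0.29 in exposed cells (adjusted p = 0.000243), the former lost without replicate number 3 (adjusted p = 0.0873). Probe A_66_P131374, which the design ties to another RefSeq transcript of Chmp3, read 1.96, 1.95, 1.77 and 1.85 in S0, 1.51, 1.49, 1.62 and 1.68 in S4, and 1.49, 1.58, 1.61 and 1.58 in S24. It was lower at both later times, falling by 0.31 at 4 h (adjusted p = 9.73e-05) and by 0.32 at 24 h (adjusted p = 0.000218) in sham, where spike-in scaling turned the difference at 24 h to 0.38. In exposed cells it fell by 0.32 at 4 h (adjusted p = 7.82e-05) and by 0.18 at 24 h (adjusted p = 0.0201). The latter was lost with spike-in scaling, normexp background correction and only the groups compared, and in 5 of 28 fits with arrays left out, those without replicate 1 of E0, replicate 1 or 3 of E24 or replicate number 1 or 3 (adjusted p up to 0.121).

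The other Chmp3 probes followed the lead probe at 24 h or were noisy. A_52_P493394 was 0.27 higher in S24 than in S0 (adjusted p = 0.00710), and A_51_P223363 was 0.22 higher, which did not pass (adjusted p = 0.0563). In exposed cells A_52_P493394 fell by 0.28 from 0 to 4 h (adjusted p = 0.00268, lost with spike-in scaling) and was 0.21 higher at 24 h than at 0 h (adjusted p = 0.0274), the latter lost under 3 of 12 other settings and in 8 of 28 fits with arrays left out. The rise of A_52_P493394 in sham was lost with normexp background correction and without replicate number 2 (adjusted p = 0.0521). The dim probe A_66_P101251 had an SE of 0.22 and was called in 0 comparisons. The table of promoters holds a pair of start regions for Chmp3, which are shown because its probes differed in time. The design ties A_66_P131374 and A_66_P101251 to the same transcript, and which probe reports RNA from which start was not tested.
Chmp3 upstream promoter, chr6:71543602-71543901, plus strand: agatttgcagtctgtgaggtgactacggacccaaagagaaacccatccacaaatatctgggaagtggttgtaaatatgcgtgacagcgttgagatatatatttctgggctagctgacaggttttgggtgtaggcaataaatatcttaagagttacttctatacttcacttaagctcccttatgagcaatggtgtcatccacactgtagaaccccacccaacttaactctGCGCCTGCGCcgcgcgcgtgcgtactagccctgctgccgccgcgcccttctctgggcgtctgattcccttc
Chmp3 downstream promoter, chr6:71544103-71544402, plus strand: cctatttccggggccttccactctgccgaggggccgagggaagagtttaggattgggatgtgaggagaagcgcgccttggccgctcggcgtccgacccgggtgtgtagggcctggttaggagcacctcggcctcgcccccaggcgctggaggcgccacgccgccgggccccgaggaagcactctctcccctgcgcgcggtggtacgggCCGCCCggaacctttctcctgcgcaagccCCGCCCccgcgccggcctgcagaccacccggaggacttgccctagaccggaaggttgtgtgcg

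The upstream window holds the NRF1 site and has 49.7% G and C, and the downstream window holds the GC-box and has 71.0%.

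**Figure D4:**
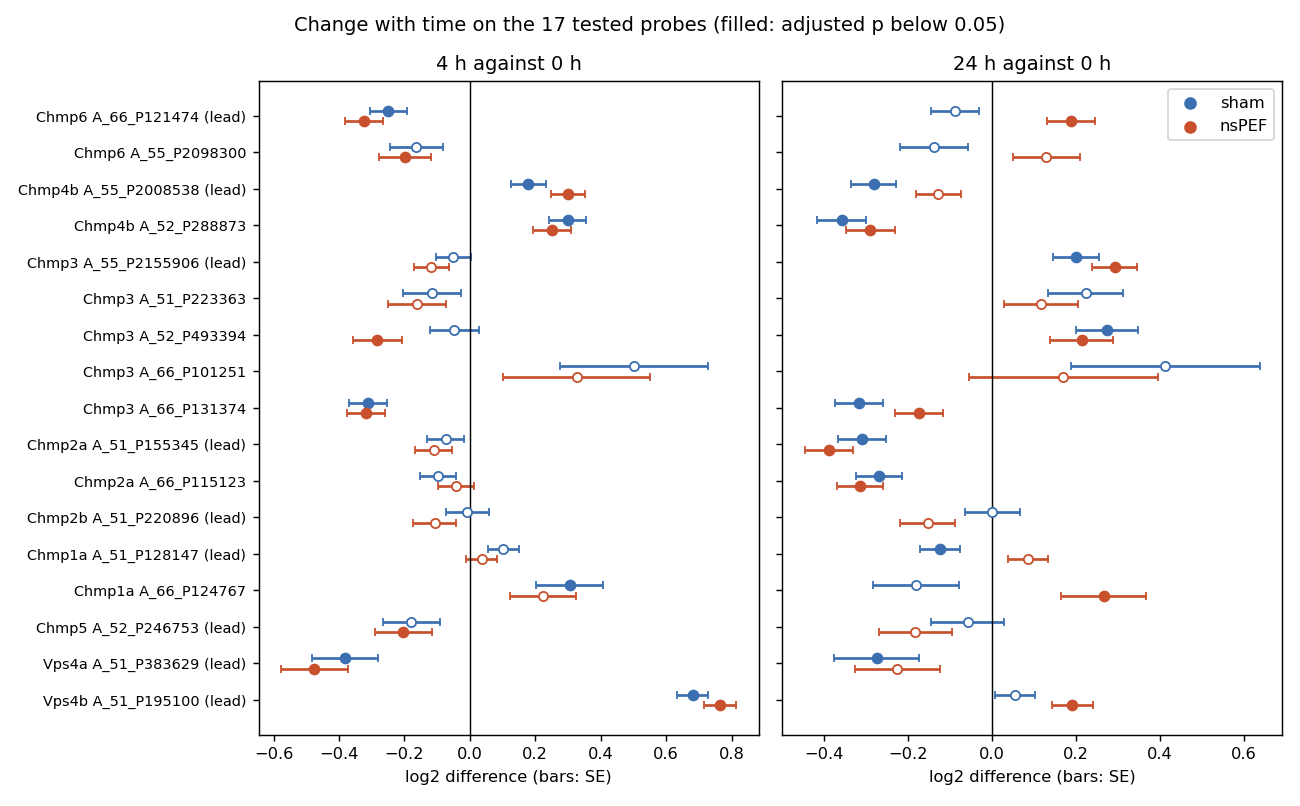
Change from 0 to 4 h (left) and from 0 to 24 h (right) on the 17 tested probes (horizontal axes, log2 difference with the SE of limma) in sham (blue) and nsPEF-exposed cells (orange). At 24 h the Chmp3 probe A_66_P131374 lies at -0.32 in sham and the lead probe of Chmp3 at 0.20. With spike-in scaling the Chmp2a, Chmp4b and A_66_P131374 points at 24 h lie above 0.

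The calls of the remaining subunits were few or unstable. Chmp5, which binds the Vps4 cofactor Vta1, read 3.63 to 3.84 in S0, 3.26 to 3.71 in S4 and 3.55 to 3.72 in S24, with overlapping groups, and was called in 1 comparison. That was a fall of 0.20 from E0 to E4 (adjusted p = 0.0495), which was held in 7 of 28 fits with arrays left out and reached an adjusted p of 0.217. Chmp1a was lower in S24 than in S0 by 0.13 (-0.13, adjusted p = 0.0455) and than in S4 by 0.23 (-0.23, adjusted p = 0.000375). The former was held in 3 of 12 other settings and in 9 of 28 fits with arrays left out, the latter in 9 of 12 and in 28 of 28, and spike-in scaling turned both signs. In exposed cells Chmp1a differed by 0.08 from 0 to 24 h (adjusted p = 0.161). Its second probe rose by 0.31 from 0 to 4 h in sham (adjusted p = 0.0144) and by 0.27 from 0 to 24 h in exposed cells (adjusted p = 0.0425), of which the former was lost under 3 of 12 other settings and without replicate 1 or 2 of S0, and the latter under 7 of 12 other settings and in 9 of 28 fits with arrays left out.

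Of the rest of the ESCRT pathway, 29 genes with 43 probes were tested. From 0 to 4 h in sham 22 of the 29 were called, 12 higher and 10 lower, beside 30.8% and 34.6% of all genes. The largest rise was that of Vps37b, a subunit of ESCRT-I, which read 1.42, 1.44, 1.44 and 1.33 in S0 and 3.46, 3.60, 3.48 and 3.40 in S4. The groups were far apart, with a difference of 2.07 (SE 0.056, 4.21-fold, adjusted p = 6.55e-17), and S24 was back between 1.44 and 1.51. Vps37a, another ESCRT-I subunit, rose by 1.03 (adjusted p = 1.46e-13), and Pdcd6ip (Alix), which binds Chmp4 proteins and brings them to membranes, rose by 0.98 (adjusted p = 9.89e-09). The other Pdcd6ip probes, A_52_P452787 and A_52_P188975, rose by 1.00 and 0.65 (adjusted p = 3.95e-10 and 0.00375).

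The largest falls at 4 h were also found outside ESCRT-III. The ESCRT-I subunit Vps37d fell by 1.26 (2.39-fold, adjusted p = 1.53e-13), from 1.81 to 1.89 in S0 to 0.51 to 0.67 in S4. Cep55, which draws Alix and ESCRT-I to the bridge between dividing cells, fell by 0.58 (adjusted p = 1.35e-08), and the lead probe of the ESCRT-I subunit Mvb12b fell by 0.57 (adjusted p = 2.14e-08). The probes of Mvb12b disagreed, since A_65_P17380 rose by 0.52 (adjusted p = 0.00384) and A_66_P129928 by 0.18 (adjusted p = 0.00442, lost without replicate number 4), so that no direction holds for the gene. The second Cep55 probe, A_55_P2025033, was at -0.24 and did not pass (adjusted p = 0.216). The calls of the 6 lead probes held in 12 of 12 other settings. In exposed cells 22 of the 29 genes were called from 0 to 4 h, 11 higher and 11 lower, beside 34.8% and 33% of all genes. Vps37b stood at 2.23 and Vps37d at -1.32 there. Subunits of ESCRT-I moved in both directions, and Vps4b, at 0.68 in sham, lay below 4 of the 29 genes in size of rise.

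**Figure D5:**
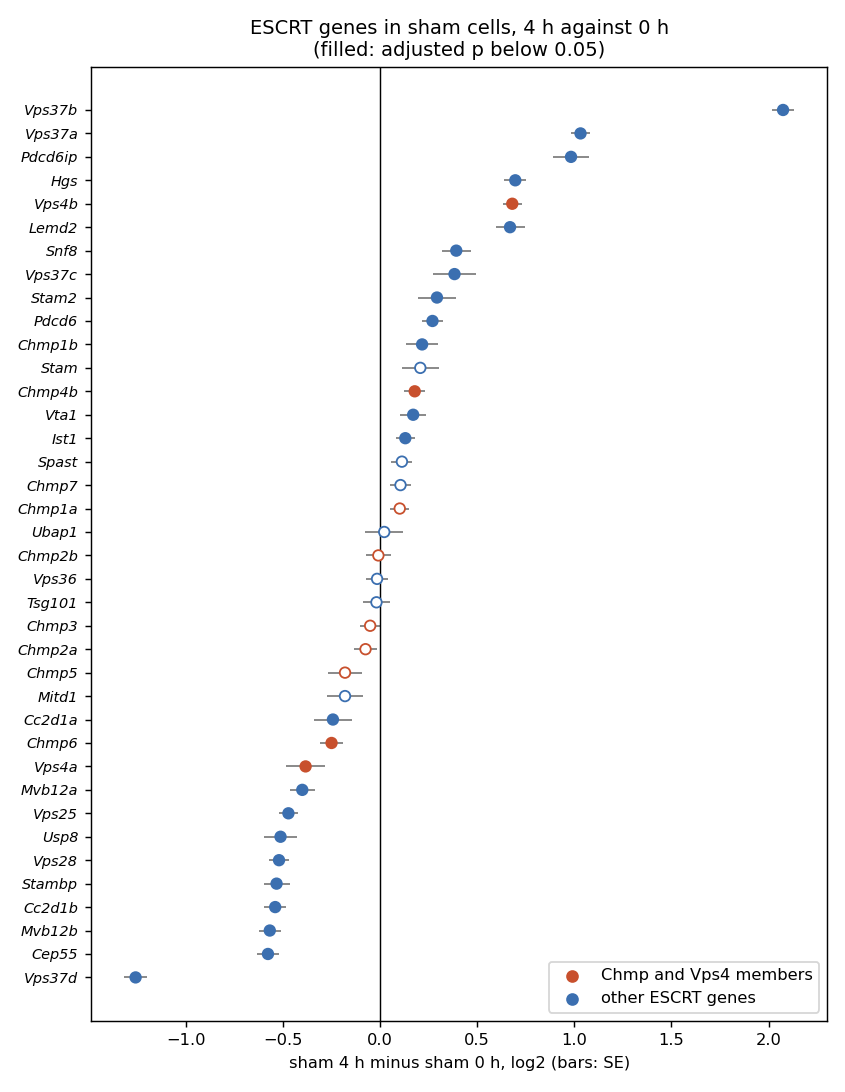
Change from 0 to 4 h in sham cells (horizontal axis, log2 difference with the SE of limma, n = 4 arrays per group) for the 9 tested Chmp and Vps4 genes (orange) and 29 other ESCRT genes (blue), by lead probe. Vps37b lies at 2.07 and Vps37d at -1.26, and Vps4b at 0.68 is the highest of the orange points.

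From 0 to 24 h 11 of the 29 genes were called in sham, 2 higher and 9 lower, beside 15.7% and 22.8% of all genes. Pdcd6ip was still 0.32 higher (adjusted p = 0.0103, lost without replicate number 3 at 0.109) and Vps37a 0.26 higher (adjusted p = 0.000218). The lead probe of the ESCRT-III regulator Ist1 fell by 0.53 (adjusted p = 5.82e-08), the ESCRT-0 subunit Stam2 by 0.48 (adjusted p = 0.000537) and the ESCRT-I subunit Vps28 by 0.44 (adjusted p = 1.51e-06), while with spike-in scaling these 3 differences were above 0. Of the other Ist1 probes A_55_P2740758 fell by 0.48 (adjusted p = 0.00424, above 0 with spike-in scaling and lost without replicate number 4) and A_51_P196895 was at 0.08, which did not pass (adjusted p = 0.373). Of the other Pdcd6ip probes A_52_P452787 was 0.21 higher (adjusted p = 0.037, held in 8 of 12 other settings and 20 of 28 fits with arrays left out) and A_52_P188975 was at -0.29, which did not pass (adjusted p = 0.224) and was above 0 with spike-in scaling.

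Between nsPEF and sham the lead probes of 3 of the 29 other ESCRT genes were called in some comparison. At 0 h 0 were called, beside 0.101% of all genes. The counts were 1 at 4 h, 1 at 24 h and 2 over all time points, beside 4.03, 5.74 and 10.1% of all genes. An unadjusted p below 0.05 was found for 5 at 0 h, 4 at 4 h, 7 at 24 h and 6 over all time points. The share of all genes at that unadjusted limit is not given. Stambp (AMSH), a deubiquitinase that binds Chmp3, read 1.57, 1.40, 1.44 and 1.37 in S4 and 1.17, 1.10, 1.03 and 1.08 in E4. All E4 arrays lay lower, by 0.35 (-0.35, SE 0.067, 1.27-fold, adjusted p = 0.0115), and over all time points its difference was -0.19 (adjusted p = 0.00816). With spike-in scaling neither passed (-0.16 and -0.10, adjusted p = 0.253 and 0.259). The call at 4 h was also lost with only the groups compared and without replicate number 1, 3 or 4 of all groups (adjusted p up to 0.111), and that over all time points without replicate number 2 or 3 (adjusted p up to 0.0848). Stam, a subunit of ESCRT-0, was lower at 24 h by 0.37 (-0.37, adjusted p = 0.0321), with 0.38, 0.47, 0.44 and 0.23 in S24 and 0.36, -0.13, -0.0034 and -0.19 in E24, where E24 replicate 1 overlapped the sham arrays. That call was lost when replicate 1, 2 or 3 of S24 or replicate 2, 3 or 4 of E24 was left out, without replicate number 2, 3 or 4 of all groups (adjusted p up to 0.318), and with spike-in scaling, normexp background correction or only the groups compared. The second Stam probe, A_52_P640204, was at -0.45 and did not pass (adjusted p = 0.0516). Vps37a was -0.10 over all time points (adjusted p = 0.0255) but was called at 0 single time points, and 4 of 4 fits without a replicate number lost the call (adjusted p up to 0.196), as did 3 of 11 other settings. The Pdcd6ip probe A_52_P452787, which is not the lead, was -0.15 over all time points (adjusted p = 0.0354), a call that held in 7 of 11 other settings and in 12 of 28 fits with arrays left out.

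The genes most like Vps4b and Chmp4b over the 24 arrays were sought among 12253 lead probes well above background on all arrays. For Vps4b the highest Pearson's r were 0.986 for Nif3l1, 0.985 for Max, the partner of Myc, and 0.985 for Tmem68. For Chmp4b they were 0.963 for Myo1c, a myosin of the cell cortex, 0.961 for the tubulin Tubb6 and 0.957 for Nog, the BMP antagonist noggin. Max, like Vps4b, was higher at 4 h, with means of 2.69, 3.98 and 2.90 in S0, S4 and S24. Tubb6, like Chmp4b, was lowest at 24 h, with 6.42, 6.87 and 6.11. These correlations describe arrays that share slides by time point, and they include the differences between slides.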

How the data were processed

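Each of the 24 samples gave 1 one-colour Agilent mouse array with Cy3-labelled RNA. The authors read the scans with Agilent Feature Extraction 12.0 and deposited, per the file headers, a processed signal intensity for each spot, with background subtracted and no scaling between arrays. They also deposited a log2 table of the series, shifted to the 75th percentile of each array and centred on each probe's median, which served as an alternative. All its columns were matched to arrays.

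Here control spots and spots marked as outliers were left out, spots of a probe were averaged (59305 spots, 56605 probes), and the 75th percentile of each array was subtracted on the log2 scale. Probes were tested if 2 or more arrays in some group of 4 were well above background. With R 4.3.3 and the package data.table (version 1.17.8), limma 3.58.1 fitted 6 group means to 24 arrays, with adjustment over the 37687 tested probes at 0.05, and was tested on simulated data. The study used a 2-way ANOVA, and a plain linear model without moderation is among the alternatives. The others were quantile, spike-in (6 of 10 spike-in probes detected on all arrays) and detected-probe scaling, normexp background correction of the median intensity (offset 50), other filters, marked spots kept, centring by place of the spot, the deposited values, a replicate block, arrays left out, and only the groups compared.

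The genes and lists were chosen with earlier results of these data known. Named were all probes of the 10 genes, other ESCRT genes called between nsPEF and sham, the 3 largest rises and falls of such genes in sham from 0 h to 4 h and 24 h, by lead probe with their other tested probes beside them, and the 3 genes most correlated with Chmp4b and Vps4b. Paralog pairs were set against each other within arrays. Insl3 had no mapped probe. The number of arrays and signal over background limit the precision.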

Additional observations from a re-analysis of the deposited data

Results flagged for a closer look

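Single arrays that stood far from the other 3 of their group were sought on the 17 tested probes in 6 groups, 102 groups of 4 in all, by the gap to the nearest array as a share of the range. At the limit used, chance gives about 1 in 20, and 3 were found. The Chmp3 probe A_51_P223363 read 2.161 on E0 replicate 2, where the other 3 arrays lay between 1.58 and 1.65. The Chmp3 lead probe A_55_P2155906 read 2.596 on S4 replicate 2, below the other 3 at 2.72 to 2.74. The second Chmp6 probe, A_55_P2098300, read 0.104 on E4 replicate 2, below the other 3 at 0.21 to 0.23. No effect of nsPEF differed between time points by the interaction test of limma among the 9 lead probes, where 0 were called. An unadjusted p below 0.05 was found for 2, with no share of all genes to set beside it.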

How the results depend on the processing

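Of 2431 values of single genes or probes recomputed under other settings 2212 were counted as the same, 88 lost a call and 96 gained one. Another 35 turned their sign with a call before or after. Of 5740 recomputed with arrays left out 5504 were counted as the same, and 0 turned in that way. A turn of sign between values that were not called under either setting was counted as the same. The counts of called genes among the 9 moved as follows, and the cause was not tested. nsPEF against sham at 4 h went from 1 to 0 with quantile normalization, spike-in scaling, the percentile over detected probes, centring by place and only the groups compared. At 24 h it went from 0 to 1 with quantile normalization, the percentile over detected probes, no filter, the plain model and the replicate block, and over all time points from 0 to 1 with marked spots kept and to 2 with the deposited log2 values. Sham 24 h against 0 h went from 5 to 9 with spike-in scaling and to 3 with the percentile over detected probes, no filter or centring by place. nsPEF 4 h against 0 h went from 5 to 8 with the percentile over detected probes. nsPEF 24 h against 0 h went from 4 to 7 with spike-in scaling. For 24 h against 0 h, spike-in scaling took the median of all genes from -0.02 to 0.68 in sham. In nsPEF cells it took that median from 0.04 to 0.51. The share of all genes called under spike-in scaling, the percentile over detected probes and the other settings is not given. The counts under them therefore have no background to be set against. With arrays left out the counts ranged from 0 to 1 at 4 h, from 0 to 2 at 24 h and for the interaction, from 3 to 5 and from 2 to 5 for sham 4 h and 24 h against 0 h, from 5 to 6 for sham 24 h against 4 h, and from 4 to 6, 3 to 6 and 5 to 6 for nsPEF 4 h against 0 h, 24 h against 0 h and 24 h against 4 h.

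Of the 29 other ESCRT genes 28 were called in sham from 0 to 24 h with spike-in scaling (11 before). In nsPEF cells 23 were called (12 before). The median of all genes moved by 0.68 in sham and by 0.51 in nsPEF cells under that scaling. The counts of 28 and 23 thus include a shift shared with the other genes on the array, and its part in them was not tested. No share of all genes called under that scaling is given beside them. Between treatments the counts of these genes were 1 at 4 h, 1 at 24 h and 2 over all. Under other settings they lay between 0 and 2, 0 and 2, and 1 and 4. With arrays left out they lay between 0 and 2, 0 and 6, and 0 and 3. Deviations of same-numbered arrays from their group means correlated weakly (r from -0.04 to 0.09) and the labels do not tie them together, so the replicate numbers were not taken as pairs. The fit with the replicate block called 1 gene at 24 h, Chmp1a (adjusted p = 0.0308).

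Turns of sign between values not called under either setting are not listed here. Spike-in scaling took the median of all genes in nsPEF against sham at 0 h from -0.04 to 0.12. At 4 h it took that median from -0.02 to 0.16, so small uncalled differences there can turn as well. The signs that turned with a call before or after did so at 24 h, with these adjusted p values under spike-in scaling. For sham 24 h against 0 h they were 0.000222 for Vps28, 0.112 for Stam2, 0.0153 for Ist1, 0.235 for Ist1 A_55_P2740758, 0.0455 for Pdcd6ip A_52_P188975, 0.000943 for Chmp1a A_66_P124767, 0.000111 for Chmp2a A_66_P115123, 8.25e-05 for Chmp3 A_66_P131374, 0.00351 for Chmp4b A_52_P288873, 2.87e-05 for Chmp6 A_55_P2098300, 3.53e-07 for Chmp1a, 0.000318 for Chmp2a, 0.000102 for Chmp4b, 5.88e-05 for Chmp5, 4.63e-07 for Chmp6 and 0.00897 for Vps4a. For sham 24 h against 4 h they were 0.255 for Chmp1a A_66_P124767, 3.72e-05 for Chmp2a A_66_P115123, 0.0359 for Chmp3 A_66_P101251, 1.18e-07 for Chmp3 A_66_P131374, 1.73e-05 for Chmp1a, 0.000185 for Chmp2a, 0.0435 for Chmp4b and 0.81 for Vps4b. For nsPEF 24 h against 0 h they were 0.0973 for Chmp2a A_66_P115123, 0.00114 for Chmp3 A_66_P131374, 0.0974 for Chmp4b A_52_P288873, 0.37 for Chmp2a, 0.00468 for Chmp2b, 0.000839 for Chmp4b and 0.0345 for Chmp5. For nsPEF 24 h against 4 h they were 0.199 for Chmp2a A_66_P115123, 0.222 for Chmp2a and 0.00255 for Chmp2b. The percentile over detected probes turned Chmp3 A_66_P131374 from 4 to 24 h in sham (adjusted p = 0.0197). Dim probes, of which Chmp4c is the extreme, limit what can be seen.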
